A study of Mus musculus with 19 samples.

Results

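Ventricular gene expression was compared at the earlier time point of an inducible, heart-specific Mpc1 knockout in adult mice, 8 weeks after the knockout was induced. The comparison set 4 libraries labelled Mpc1 knockout (KO-8) against 5 labelled wild type (WT-8), which are 9 of the 19 libraries of the series, and the 10 libraries of the 16-week time point did not enter it. The members were therefore fixed by the labels for genotype and time, and no measured value chose them. Total RNA from ventricular tissue was depleted of ribosomal RNA, made into stranded libraries and sequenced in pairs. The labels name neither the driver of the inducible recombinase nor an inducing agent, age or strain, and do not say whether the wild-type mice carried the recombinase or were induced. Nothing in them ties libraries to separate mice, and the p-values are therefore about the scatter of these 9 libraries, which may in part be technical.

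Pyruvate, the end product of glycolysis, enters the mitochondrial matrix through a carrier of the inner membrane that Mpc1 and Mpc2 form together, and both subunits are needed for transport. Inside, pyruvate is oxidised to acetyl-CoA or carboxylated to oxaloacetate. The adult heart draws most of its energy from fatty acids and takes up glucose, lactate and ketone bodies as well, and hearts under sustained load usually turn back on genes of the fetal ventricle.

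The 9 libraries held 16.5 to 27.5 M (mega) read pairs counted in genes (WT-8 from 17.4 to 27.5, KO-8 from 16.5 to 19.5). Levels below are CPM, the counts of a gene per 1000000 counted pairs, scaled over these 9 libraries, and are compared between groups and not between genes. The cardiomyocyte markers summed to 156130 to 160090 CPM in WT-8 and 151870 to 160020 in KO-8, while no marker of lung, liver or thymus was high enough to be tested, and 6 of the 11 were at 0 in all 9 libraries. Mitochondrial genes took 24.9 ± 1.48% of the counts in WT-8 (SD, n = 5) and 23.1 ± 1.82% in KO-8 (n = 4), a difference within the spread of the libraries (2-sided exact permutation test, p = 0.175). Hemoglobin genes took 0.0577% to 0.125% in WT-8 and 0.0329% to 0.0748% in KO-8, and the Y-linked Ddx3y was at 0 in all 9. The ribosomal RNA gene CT010467.1 took 0.0666% of the counts in KO-8 replicate 4 and 0.000652% to 0.000956% in every other library.

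Mpc1 itself, the gene that was deleted (ENSMUSG00000023861, GRCm38 chromosome 17, 8282904 to 8297661, plus strand), stood at 112, 104, 102, 105 and 88.0 CPM in WT-8 replicates 1 to 5 and at 15.2, 16.7, 11.7 and 16.1 CPM in KO-8 replicates 1 to 4. The groups did not overlap. Mpc1 was 6.84-fold lower after the deletion (log2 fold change -2.77, SE 0.10, adjusted p = 6.72e-10, edgeR quasi-likelihood test with Benjamini-Hochberg adjustment, as for every adjusted p below unless another tool is named). In bulk tissue, fewer cells with the transcript and less transcript per cell cannot be told apart, and ventricle also holds cells that are not cardiomyocytes. Mpc2, the partner subunit, ranged from 98.3 to 119 CPM in WT-8 and from 93.3 to 126.2 in KO-8, a log2 difference of 0.06 (95% interval -0.10 to 0.22, adjusted p = 0.704). The processed pseudogene Mpc1-ps (chromosome 12, 110858565 to 110858894, minus strand), named here after its values were seen, went from 14.3 to 18.3 CPM in WT-8 to between 0.352 and 0.720 CPM in KO-8. A processed pseudogene is a copy of a transcript, and reads that match both Mpc1 and the copy cannot be assigned with certainty.

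Sft2d1, the gene downstream of Mpc1 on the same strand (chromosome 17, 8311102 to 8327442), rose in the knockout hearts. It encodes a membrane protein of vesicle traffic between endosomes and the Golgi, and it starts 13.4 kb beyond the end of Mpc1. Its level was 5.74, 5.50, 4.88, 4.89 and 5.37 CPM in WT-8 and 20.01, 21.2, 17.4 and 21.7 CPM in KO-8. The KO-8 values lay close together and far above every WT-8 value, a 3.79-fold rise (log2 1.92, SE 0.09, adjusted p = 1.26e-08). Of 49 genes tested within 5 Mb of Mpc1, itself included, only 2 more passed: Qk, an RNA-binding regulator of splicing (log2 -0.26, SE 0.05, adjusted p = 0.00826), and Map3k4, a stress kinase (0.28, SE 0.05, adjusted p = 0.00512).

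One WT-8 library stood apart at a handful of genes. Esr1, the estrogen receptor whose ligand-binding domain is widely used to make recombinases inducible by tamoxifen, stood at 1792 CPM in WT-8 replicate 1 and at 0.869, 1.27, 1.59 and 1.07 CPM in replicates 2 to 5. KO-8 held 1502, 1481, 2316 and 1432 CPM. WT-8 replicate 1 was therefore within the KO-8 range for Esr1 and, at 112 CPM, had the highest Mpc1 of all 9 libraries. A1cf, an RNA-binding cofactor of RNA editing on chromosome 19, was also far higher in that library than in the rest of WT-8, though below KO-8, with 3.07 CPM (70 counts) in WT-8 replicate 1, 0 counts in WT-8 replicates 2 to 5, and 6.22, 5.51, 9.28 and 4.94 CPM in KO-8. Against a floor of 3 counts over the 4 libraries at 0, its KO-8 mean was at least 173-fold higher. The amino acid transporter Slc7a8 on chromosome 14 had WT-8 replicate 1 within the KO-8 range, at 28.9 CPM in WT-8 replicate 1, 2.29 to 2.90 in the other WT-8 libraries and 19.3 to 36.1 in KO-8. Lipo2 stood at 3.46 CPM there, 0.165 to 0.362 in the other WT-8 libraries and 1.59 to 3.29 in KO-8. The pseudogene Gm19241, which lies inside A1cf, had 0.438 CPM there, 0 in the other WT-8 libraries and 0.823 to 1.70 in KO-8, so that WT-8 replicate 1 was below KO-8 for it as well. Those last 3 genes were chosen after their values were seen. The files hold no genotype beyond the labels, and the source of these transcripts was not tested.

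Leaving WT-8 replicate 1 out changed these genes most. Without it Esr1 differed by a log2 fold change of 10.46 (adjusted p = 5.52e-12) where it had not passed before (2.22, adjusted p = 0.431). Slc7a8 went from 1.64 (adjusted p = 0.112) to 3.31 (8.14e-07) and Lipo2 from 1.33 (0.227) to 3.17 (2.05e-04). Whether these genes passed in all 9 libraries depended on the tool. With limma-voom Esr1, Slc7a8 and Lipo2 did pass there (adjusted p = 0.00273, 0.00758 and 0.023). A1cf was at 3.26 (0.0141) in all 9 libraries, and without WT-8 replicate 1 every WT-8 library was at 0, so that its fitted fold depends on the prior count and only the bound of at least 173-fold above applies (adjusted p = 1.29e-05). A1cf did not pass with DESeq2 (adjusted p = 0.44) or with robust estimation in edgeR (0.104) in all 9 libraries. Among the genes that had passed with it, the library mostly sat with its group, Lgi3 being an exception given below. It was the lowest WT-8 library in 33.3% of the 652 higher genes, against 13.8% to 22.1% for each of the others. Of the 1245 genes past the threshold in all 9 libraries, 1240 could be tested without it and all 1240 kept their direction. Of these, 886 passed again, and the fold of only 2 moved by over 1.5 times, A1cf and Gm19241. The 1245 genes were chosen with that library included, so genes at which it lay with KO-8 would tend to be missing. Their agreement is therefore partly fixed by the choice. Without that library 53 further genes passed. In the first principal component of all tested genes (32.9% of the variance) WT-8 replicate 1 was at -14.3, the other WT-8 libraries at -15.6 to -18.2 and KO-8 at 15.9 to 27.9.

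**Figure D1:**
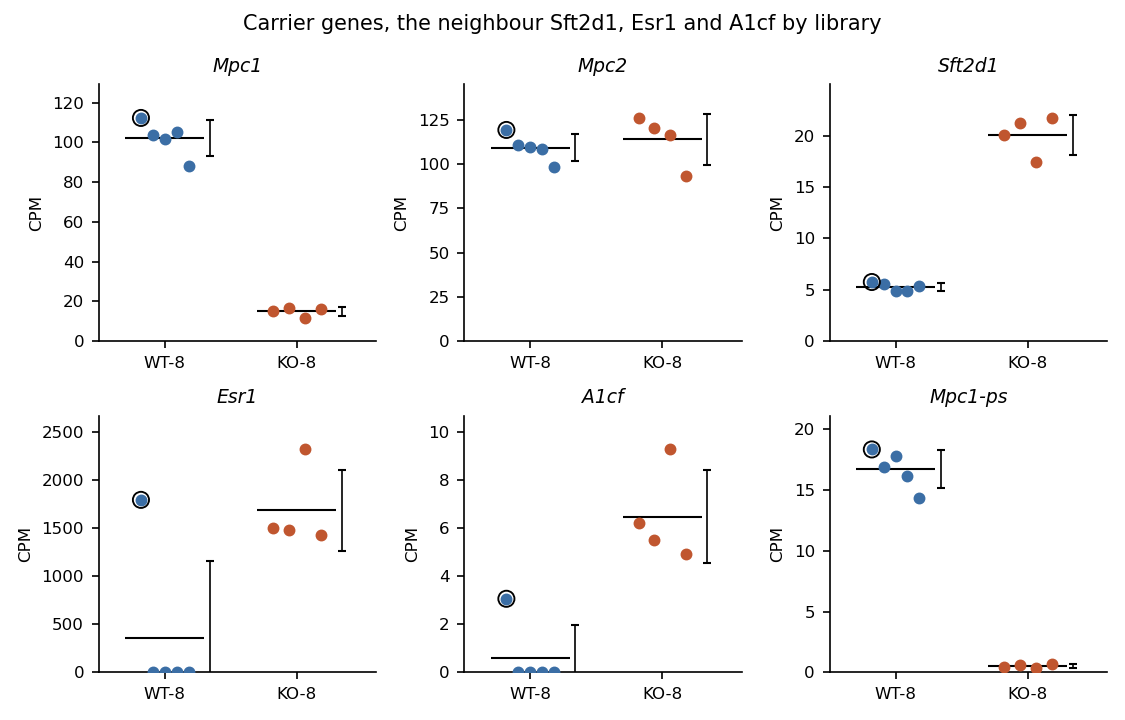
Levels in CPM of Mpc1, Mpc2, Sft2d1, Esr1, A1cf and Mpc1-ps in the 5 WT-8 (blue) and 4 KO-8 (orange) libraries, one point per library, with the group mean (line) and SD (bar at its right, cut at 0 for Esr1 and A1cf in WT-8). The ringed point is WT-8 replicate 1, which lies with WT-8 for Mpc1 (112 CPM) and within the KO-8 range for Esr1 (1792 CPM).

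**Figure D2:**
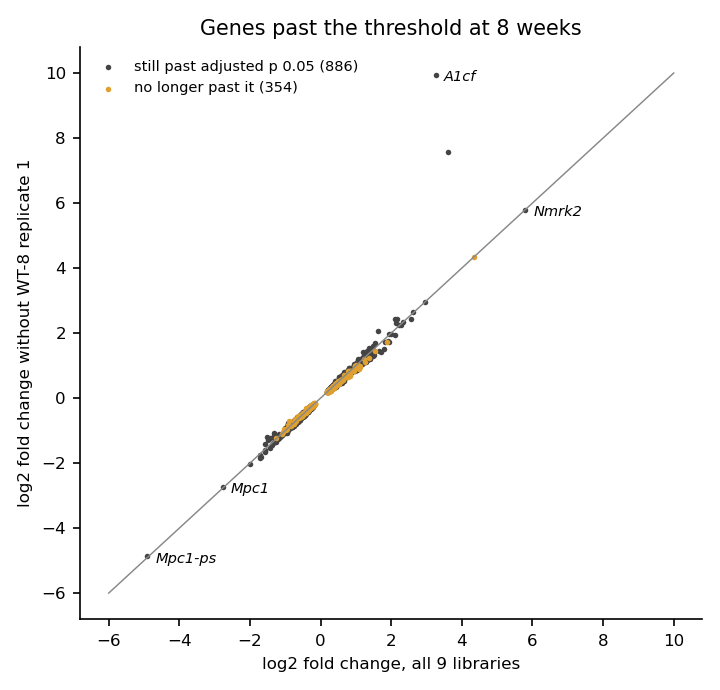
Log2 fold changes (KO-8 over WT-8) of genes past the adjusted threshold, with all 9 libraries (x axis) and without WT-8 replicate 1 (y axis), one point per gene with the diagonal drawn. Of these genes 886 passed again without that library (dark points), and A1cf lies far above the diagonal, at a height that depends on the prior count, since the other 4 WT-8 libraries are at 0.

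Across all genes, the early change was broad and mostly small. Of 15173 genes tested, 1245 (8.21%) passed an adjusted p of 0.05. Of these, 652 (4.3%) were higher in KO-8 and 593 (3.91%) lower, with a median fold of 1.39 upward and 1.32 downward. Counts on the gene lists below are to be read beside these shares of 4.3% and 3.91%. Differences of at least 2-fold were found in 115 of the higher and 57 of the lower genes, and of at least 4-fold in 14 and 4. The levels of the KO-8 and WT-8 libraries did not overlap in 1646 genes (10.8%), 1041 of which had also passed. The median log2 fold change of all tested genes was 0.0019, which the scaling brings near 0 by design. Without WT-8 replicate 1, 939 genes passed, 496 higher and 443 lower.

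These counts describe the 9 libraries with their own spread, a common coefficient of variation of 0.093. In a fit that also took the spread from the 16-week libraries (0.171 over all 19), 31 genes passed and 30 of them were among the 1245. The genes named in this text that passed there too were Mpc1, Mpc1-ps, Sft2d1, Nmrk2, Acta1, Grin2c, Msrb1, Mapk10, Ptgds, Hspb6, Col6a3, Ano10, Irs2, Otud1 and Pirt.

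**Figure D3:**
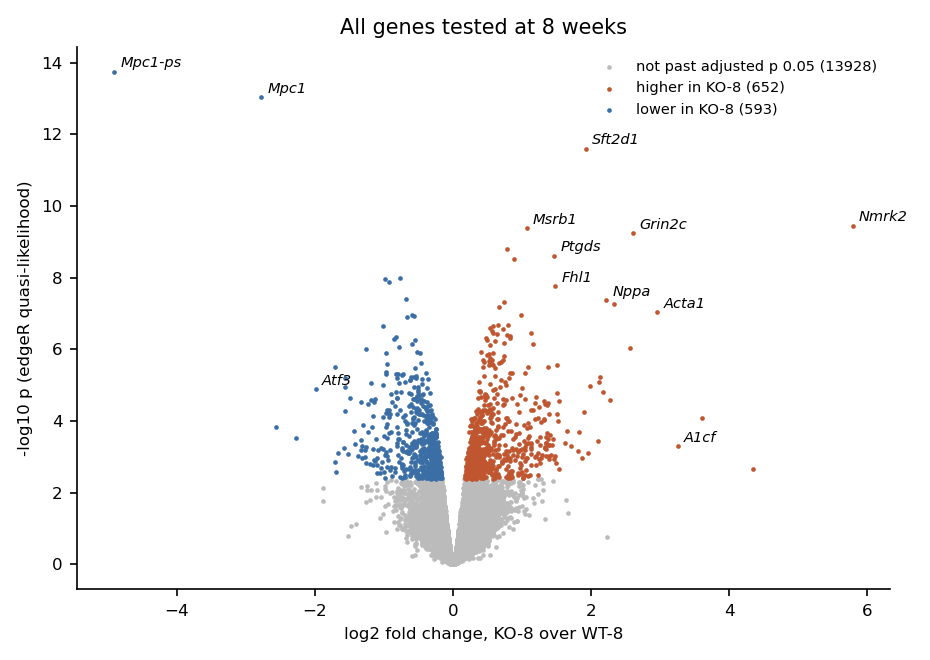
Each of the 15173 genes tested is a point, with its log2 fold change (KO-8 over WT-8) on the x axis and -log10 of the unadjusted edgeR p on the y axis, and colour marks the 652 higher (orange) and 593 lower (blue) genes past an adjusted p of 0.05. Mpc1-ps lies farthest out among the lower genes (log2 -4.91) and Nmrk2 among the higher ones (5.79).

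The largest rises included Nmrk2 of NAD synthesis, the fetal actin gene Acta1, the natriuretic peptide gene Nppa and the glutamate receptor gene Grin2c. Genes chosen as the largest rises, the largest falls or the smallest p had to show no overlap between groups. Lack of overlap is therefore part of how they were chosen. Members of the lists below were chosen by the smallest p, which favours a lack of overlap as well. Nmrk2, a kinase that makes NAD from nicotinamide riboside in muscle, went from 1.80, 1.158, 1.75, 2.53 and 1.90 CPM in WT-8 to 82.8, 80.4, 49.8 and 194 CPM in KO-8. Every KO-8 library was at least an order of magnitude above every WT-8 library, although KO-8 was spread widely, with replicate 4 the highest. The rise was 55.3-fold (log2 5.79, SE 0.38, adjusted p = 1.25e-06). The other measured genes of NAD synthesis and use did not rise: of 16 on the list, Nmrk2 alone was higher and 2 were lower (6.25% and 12.5%, against 4.3% and 3.91% of all genes). The number that fell was 1 without any one of WT-8 replicates 1, 3 and 4 and KO-8 replicates 2 to 4. Among the genes that fell was Nampt, the enzyme of the salvage route from nicotinamide (log2 -0.27, SE 0.06, adjusted p = 0.013).

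Acta1, the skeletal muscle alpha-actin that fetal ventricle also makes, was at 86.6, 120, 133, 56.7 and 48.9 CPM in WT-8 and at 488, 522, 1116 and 632 CPM in KO-8. No value of one group reached the other, and the log2 fold change was 2.96 (SE 0.30, adjusted p = 7.27e-05). Nppa, the atrial natriuretic peptide, was at 48.0, 40.9, 64.4, 32.3 and 31.9 CPM in WT-8 and 206, 153, 289 and 161 CPM in KO-8. Its rise was 4.66-fold (log2 2.22, SE 0.21, adjusted p = 4.14e-05). Fhl1, which senses load at the sarcomere through its LIM domains, went from 56.3 to 64.6 CPM in WT-8 to 112, 167, 184 and 211 CPM in KO-8 (log2 1.48, SE 0.13, adjusted p = 1.94e-05).

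Genes with roles outside the contractile apparatus were among the clearest rises. Grin2c, a glutamate receptor subunit, rose from between 0.603 and 1.21 CPM to between 4.997 and 6.23 CPM (log2 2.61, SE 0.18, adjusted p = 1.4e-06). Mapk10, the JNK3 stress kinase, rose from between 15.2 and 16.2 CPM to 28.7, 26.9, 26.6 and 25.7 CPM (log2 0.79, SE 0.06, adjusted p = 3.33e-06). Msrb1, a selenoprotein that reduces oxidised methionine, rose from 49.6 to 56.9 CPM to 101 to 127 CPM (log2 1.07, SE 0.07, adjusted p = 1.25e-06), and Ptgds, which makes prostaglandin D2, from 98.3 to 141 CPM to 249 to 366 CPM (log2 1.47, SE 0.11, adjusted p = 4.56e-06). Groups did not overlap for any of the 4, as their choice required.

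Among the other large rises were Lman1l, a lectin-like protein of the secretory pathway, at log2 2.56 (SE 0.31, adjusted p = 2.81e-04), and Lgi3, a secreted protein of the leucine-rich glioma-inactivated family, at 1.54 (SE 0.25, adjusted p = 0.00242). Both started from low levels, 0.219 to 0.542 CPM and 1.33 to 2.19 CPM in WT-8. The matrix genes Cilp, Mfap4 and Tnc and the mitotic gene Nuf2 were also among the largest rises and are described with their groups.

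The largest falls after Mpc1 included regulators of the stress and growth response, a potassium channel subunit and genes of cilia. Atf3, a transcription factor induced by stress, was at 11.03, 13.9, 16.3, 14.2 and 4.94 CPM in WT-8 and at 3.91, 2.78, 2.06 and 3.19 CPM in KO-8. WT-8 replicate 5 came near the KO-8 values without reaching them, and the log2 fold change was -1.99 (SE 0.30, adjusted p = 0.0016). Irs2, an adaptor that couples the insulin receptor to its kinases, was at 31.5, 29.5, 25.9, 21.1 and 12.6 CPM in WT-8 and at 8.17, 10.7, 8.17 and 10.9 CPM in KO-8 (log2 -1.33, SE 0.22, adjusted p = 0.0025). Kcnv2, a silent subunit that modifies voltage-gated potassium channels, went from 13.4, 17.9, 19.5, 15.2 and 20.9 CPM to 8.94, 8.12, 5.35 and 6.69 CPM (log2 -1.26, SE 0.15, adjusted p = 3.08e-04). For both genes all KO-8 libraries lay below all WT-8 libraries, as the choice of the largest falls required.

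Less familiar genes filled the rest of the list. Plekhh1, a membrane-associated protein with a pleckstrin homology domain, fell by 1.49 on the log2 scale (SE 0.24, adjusted p = 0.0022), the neural adhesion protein Cntn5 by 1.23 (SE 0.21, adjusted p = 0.00277) and the deubiquitinase Otud1 by 1.13 (SE 0.18, adjusted p = 0.00224). Cfap61 of motile cilia fell by 1.57 (SE 0.27, adjusted p = 0.00358) and Ubxn10, which has a role in building cilia, by 1.24 (SE 0.25, adjusted p = 0.00836). Pirt, a regulator of TRP channels, fell by 0.98 (SE 0.12, adjusted p = 3.49e-04), the lipid transporter Abca4 by 1.04 (SE 0.23, adjusted p = 0.0147) and Ano10 of the anoctamin family by 0.93 (SE 0.08, adjusted p = 1.66e-05). Rp1, a microtubule protein of photoreceptors, was at -1.71 (SE 0.43, adjusted p = 0.0252), and it did not pass without WT-8 replicate 4 (adjusted p = 0.0544), WT-8 replicate 5 (0.0501) or KO-8 replicate 2 (0.0657), nor in all 9 libraries with DESeq2 (0.0603), limma-voom (0.0518, or 0.0625 with quality weights) or robust estimation in edgeR (0.132). The lectin Clec18a was at -1.15 (SE 0.30, adjusted p = 0.0282) and did not pass without WT-8 replicate 2 (0.0621), WT-8 replicate 5 (0.0591), KO-8 replicate 3 (0.0719) or KO-8 replicate 4 (0.064), nor with limma-voom and quality weights (0.0578).

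**Figure D4:**
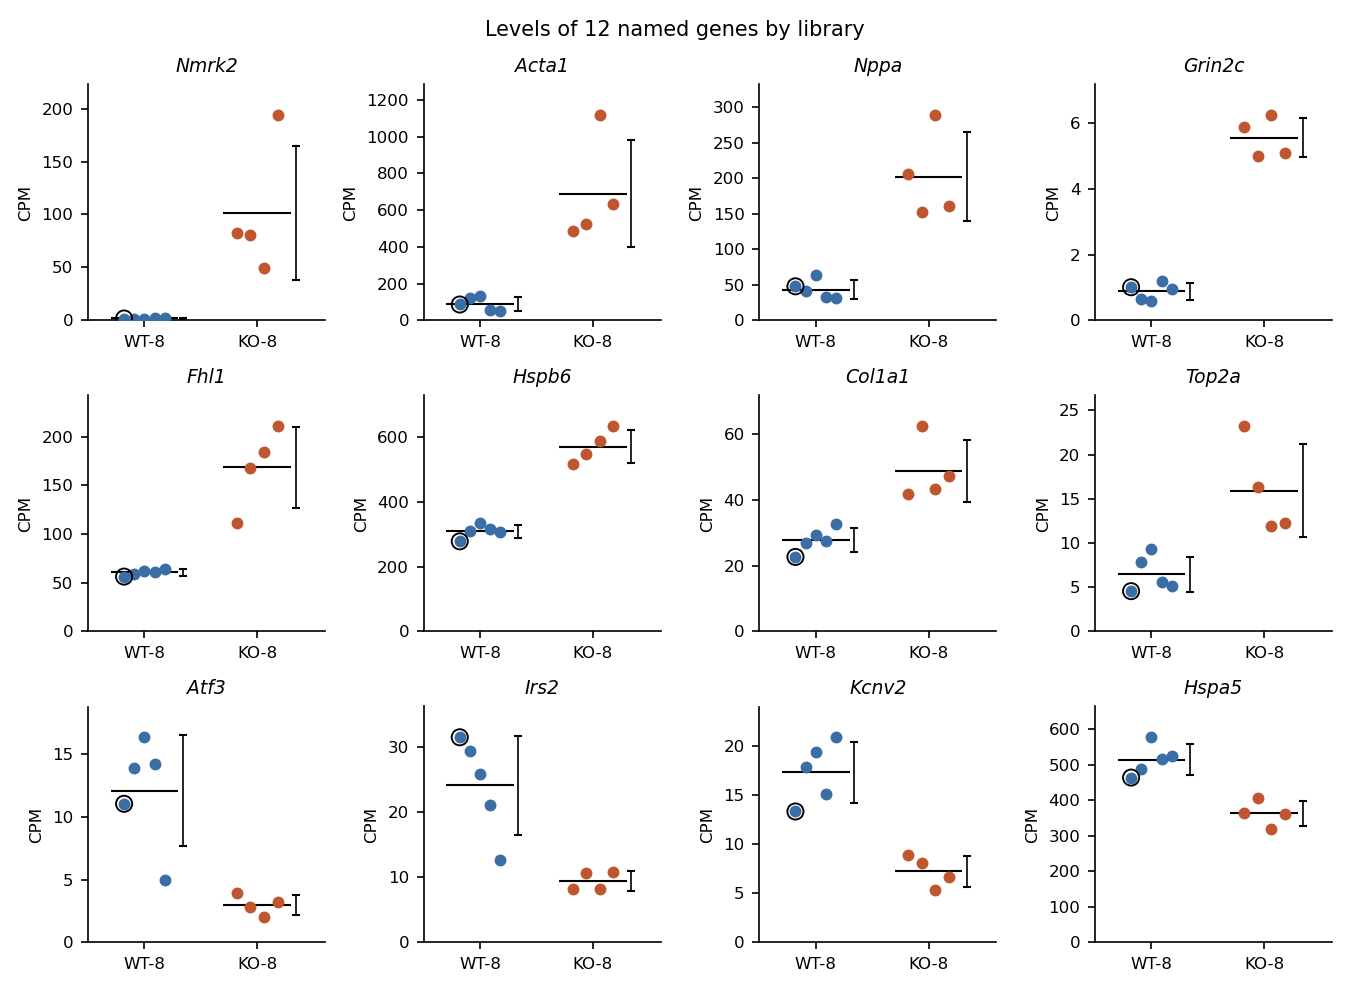
Levels in CPM of 12 named genes in the 5 WT-8 (blue) and 4 KO-8 (orange) libraries, one point per library, with group mean (line) and SD (bar at its right), and WT-8 replicate 1 ringed. Nmrk2, Acta1, Nppa, Grin2c, Fhl1, Hspb6, Col1a1 and Top2a are higher in KO-8 and Atf3, Irs2, Kcnv2 and Hspa5 lower, with no overlap between the groups. For all but Col1a1, Top2a and Hspa5 the rule that chose the genes required this. Those genes were chosen by the smallest p in their lists, which favours groups that do not overlap.

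Genes of the extracellular matrix rose together. The matrix of the ventricle is laid down mainly by fibroblasts and carries the load between myocytes, with fibrillar collagens, basement membrane collagens and matricellular proteins as its main classes. Of 38 matrix genes tested, 29 rose and none fell, and their median log2 fold change was 0.63. Without WT-8 replicate 1 the count was 28. Col1a1, a chain of fibrillar collagen I, was at 22.6, 26.8, 29.2, 27.4 and 32.5 CPM in WT-8 and 41.8, 62.3, 43.2 and 47.1 CPM in KO-8. The groups were apart, with KO-8 replicate 2 the highest (log2 0.81, SE 0.12, adjusted p = 9.94e-04). Its partner chain Col1a2 rose by a log2 of 0.74 (SE 0.07, adjusted p = 4.46e-05), fibrillar Col3a1 by 0.79 (SE 0.09, adjusted p = 1.24e-04), microfibrillar Col6a3 by 0.66 (SE 0.07, adjusted p = 5.54e-05) and basement membrane Col4a1 by 0.64 (SE 0.07, adjusted p = 1.24e-04).

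Of 9 tested markers of activated fibroblasts, 6 rose and none fell (median log2 0.87), and 5 rose without WT-8 replicate 1. The matrix list holds Cilp as well, so this count is not separate from that of the matrix. Tnc, the matricellular tenascin C of wound repair, went from 1.66, 2.08, 2.65, 1.10 and 1.90 CPM to 4.50, 6.87, 4.70 and 5.04 CPM (log2 1.5, SE 0.20, adjusted p = 5.7e-04). Postn, periostin, rose by a log2 of 0.81 (SE 0.15, adjusted p = 0.00508) and Meox1, a transcription factor of fibroblast activation, by 0.80 (SE 0.15, adjusted p = 0.00511). Cilp, a secreted inhibitor of growth factor signalling in matrix, was at 6.26, 7.99, 11.9, 5.77 and 3.91 CPM in WT-8 and 26.6, 20.6, 69.0 and 18.9 CPM in KO-8. KO-8 replicate 3 was by far the highest, and the log2 fold change of 2.28 (SE 0.37, adjusted p = 0.00238) was 1.66 (adjusted p = 0.00116) without it. Mfap4, a microfibril protein, was also highest in that library, 32.0 CPM against 11.5 to 14.03 in the other KO-8 libraries (log2 1.52, SE 0.28, adjusted p = 0.00512), and did not pass with robust estimation in edgeR (0.0563).

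Markers of the fibroblast itself rose in 6 of 12 cases, and their summed level was 1565 to 1654 CPM in WT-8 and 1616 to 2386 CPM in KO-8. Collagens are part of that list too, so it is not separate from the matrix count. Among the markers of smooth muscle and pericytes, 5 of 11 rose (45.5%, against 4.3% of all genes). They included Myh11, smooth muscle myosin (log2 0.47, SE 0.07, adjusted p = 0.00201) and Mylk, its light chain kinase (0.29, SE 0.06, adjusted p = 0.00991). One marker fell, Abcc9, the sulfonylurea receptor subunit that cardiomyocytes share (-0.39, SE 0.07, adjusted p = 0.00508). The count of 5 was 3 without WT-8 replicate 1, 3 or 4 or without KO-8 replicate 2. Endothelial markers rose in 4 of 12 cases (33.3%), and in 2 without WT-8 replicate 1 or 4 or KO-8 replicate 3. The rises were small, such as those of Cdh5, the cadherin of endothelial junctions (0.26, SE 0.05, adjusted p = 0.0105), and Egfl7, which guides vessel growth (0.30, SE 0.06, adjusted p = 0.0111). The part that a change in cell numbers has in the matrix result was not tested. In the TGF-beta and BMP list 2 of 32 rose (6.25%, against 4.3% of all genes), 1 without WT-8 replicate 1 or KO-8 replicate 3 and 4 without KO-8 replicate 1 or 2, with Fstl1, a secreted follistatin-like protein of fibroblasts, the clearest (log2 0.61, SE 0.07, adjusted p = 2.06e-04).

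**Figure D5:**
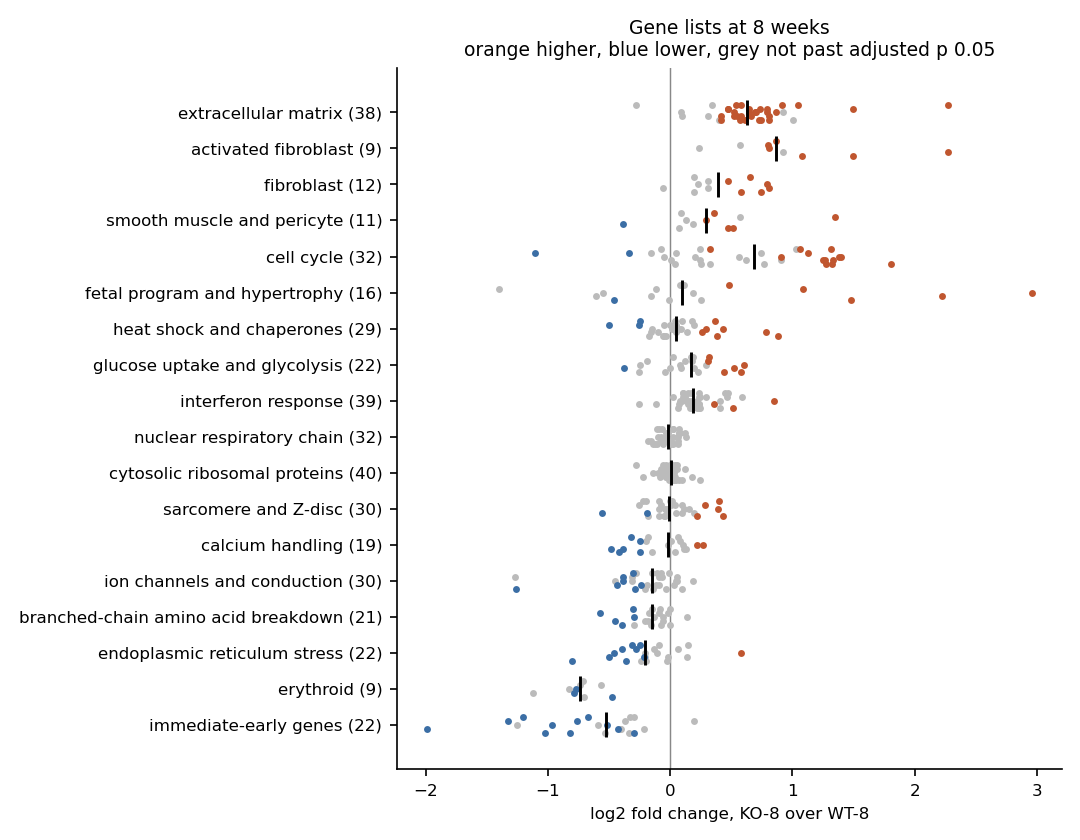
Log2 fold change (KO-8 over WT-8, x axis) of every tested member of 18 gene lists, one point per gene, with the number tested in brackets and the list median as a black bar; orange points rose, blue points fell and grey points did not pass. The matrix list has 29 of 38 members in orange and the immediate-early list 11 of 22 in blue, while the nuclear respiratory chain and cytosolic ribosome lists are all grey.

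Genes of the endoplasmic reticulum (ER) stress response were lower. Chaperones of the ER fold secreted and membrane proteins, and their genes are switched on together when unfolded protein builds up, through a promoter element, the ER stress response element, that ATF6 and XBP1 act on with NF-Y. Of 22 genes tested, 9 fell and 1 rose, with a median log2 of -0.21. Without WT-8 replicate 1 the counts were 10 and 1. The number that fell was less steady than that of the matrix: it was 5 without WT-8 replicate 3 or 4, and 4 without KO-8 replicate 1. Hspa5, the chaperone BiP that gates the response, was at 464, 487, 577, 517 and 526 CPM in WT-8 and 365, 407, 320 and 360 CPM in KO-8. All KO-8 libraries were below all WT-8 libraries (log2 -0.50, SE 0.08, adjusted p = 0.00146). Canx, the membrane chaperone calnexin, went from 460, 434, 467, 458 and 425 CPM to 368, 353, 332 and 343 CPM (log2 -0.36, SE 0.05, adjusted p = 0.00101). Ddit3, the transcription factor CHOP that acts late in the response, moved the other way, from 5.91 to 9.01 CPM to 10.7 to 11.9 CPM (log2 0.58, SE 0.10, adjusted p = 0.00393).

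The promoters of both chaperones hold the ER stress response element, printed here to show its letters in 2 of the genes that fell. The sequences are from RefSeq, build GRCm38.p6, in the direction of transcription, with the element in capitals, at chr2:34772000-34772068 on the plus strand for Hspa5 and at chr11:50325775-50325843 on the minus strand for Canx. Counted from the RefSeq start of each gene, the elements begin at -65 and -145. The Ensembl gene Hspa5, used for its counts, starts earlier, at 34771970, so the element lies inside it.
Hspa5: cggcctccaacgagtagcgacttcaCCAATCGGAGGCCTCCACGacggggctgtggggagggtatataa
Canx: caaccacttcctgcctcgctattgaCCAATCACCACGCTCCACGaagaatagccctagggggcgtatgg
The element was searched as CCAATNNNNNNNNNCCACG on both strands in the 250 bases before each start, and 33 of 27025 mouse promoters (0.122%) held it. Of the ER stress genes that fell, 7 had a promoter in the table and 5 of them held the element (Hspa5, Canx, Hsp90b1, Pdia6 and Dnajc3). For Dnajc3 the bases after the RefSeq start were not found in its GENCODE transcripts, so its start is less certain. The element was also in 3 of 11 promoters of genes on the list that did not pass (Calr, Creld2 and Syvn1), and not in that of the gene that rose. A match describes the letters only and is no measure of binding, and the list was drawn up around this response, so a share above that of all promoters is part of its make-up.

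Over the list of 29 heat shock genes and chaperones, 7 rose and 3 fell (24.1% and 10.3%, against 4.3% and 3.91% of all genes), with a median log2 of 0.04. Without WT-8 replicate 1 the counts were 6 and 2. The number that fell, Hspa5 among them, was 1 without any one of WT-8 replicates 3 and 4 and KO-8 replicates 2 to 4. Among the genes that rose were Hspb6, Hspb1, Cryab and Hspb7, small heat shock proteins, which are chaperones of the cytosol abundant in muscle, while Hspb8, Hspb2 and Hspb3 of that family did not pass. Hspb6 was at 278, 310, 334, 318 and 308 CPM in WT-8 and 516, 547, 587 and 633 CPM in KO-8. The groups were far apart relative to their spread (log2 0.88, SE 0.07, adjusted p = 4.91e-06). Hspb1 rose by a log2 of 0.79 (SE 0.09, adjusted p = 1.78e-04) and Cryab, alpha B-crystallin, by 0.43 (SE 0.06, adjusted p = 6.2e-04). On the list of the ATF4 and mitochondrial stress response, which shares Ddit3, 1 of 23 rose and 3 fell (4.35% and 13%, against 4.3% and 3.91% of all genes). Those that fell included Aldh1l2, a mitochondrial folate enzyme (log2 -0.70, SE 0.10, adjusted p = 0.00115), and Vldlr, a lipoprotein receptor (-0.48, SE 0.08, adjusted p = 0.00228).

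Immediate-early genes, which cells switch on within minutes of a stimulus, were lower. None of 22 rose, 11 fell and the median log2 was -0.52, the lowest among the pathway lists. Without WT-8 replicate 1, 10 fell. Btg2, an antiproliferative gene, was at 42.9, 55.9, 65.0, 51.3 and 32.7 CPM in WT-8 and 25.4, 22.7, 23.03 and 26.0 CPM in KO-8. KO-8 was both lower and tighter than WT-8 (log2 -1.02, SE 0.15, adjusted p = 0.00135). Klf4, a Krüppel-like transcription factor, went from 36.4, 35.7, 38.7, 34.7 and 28.5 CPM to 25.8, 23.1, 24.2 and 24.1 CPM (log2 -0.51, SE 0.08, adjusted p = 0.00177), and Fosl2, a partner in AP-1, fell by 0.76 (SE 0.13, adjusted p = 0.00352). Atf3, given above, is on this list as well. Egr1, an early growth response factor, was at -0.97 (SE 0.22, adjusted p = 0.0169) and did not pass without KO-8 replicate 1 (0.054).

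The fetal and hypertrophy program was higher in part only. Of 16 genes tested, 5 rose and 1 fell. Only 9 of the 16 log2 fold changes were above 0, with a median of 0.09 and a range of -1.40 to 2.96. The number that rose was 5 or 6 with any one library left out, while the number that fell was 0 without any one of WT-8 replicates 2 to 4 and KO-8 replicates 1, 2 and 4, and 2 without WT-8 replicate 5. Beside Acta1, Nppa and Fhl1, Ankrd1, a titin-associated stress sensor, rose from 568, 656, 913, 579 and 507 CPM to 960, 987, 2017 and 1503 CPM. The lowest KO-8 library was just above the highest WT-8 library (log2 1.09, SE 0.20, adjusted p = 0.00545), and the gene did not pass with robust estimation in edgeR (0.0605). Xirp2, an actin-binding protein of the intercalated disc, rose from 1376 to 1984 CPM to 2133, 2083, 2947 and 2139 CPM (log2 0.48, SE 0.11, adjusted p = 0.0157).

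Most sarcomere genes did not pass. Of 30 tested, 5 rose and 2 fell (16.7% and 6.67%, against 4.3% and 3.91% of all genes), and the median log2 was -0.01. The number that fell was 1 without any one of WT-8 replicates 2 to 5 and KO-8 replicates 2 and 3. Ldb3, which anchors the Z-disc (0.39, SE 0.06, adjusted p = 0.00177), and Actn2, its alpha-actinin (0.29, SE 0.06, adjusted p = 0.0137), were higher. Myom2, a protein of the M-band that cross-links myosin, was lower, 1369 to 1663 CPM in WT-8 against 930 to 1160 in KO-8 (log2 -0.55, SE 0.08, adjusted p = 6.37e-04).

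Some genes of calcium handling and of ion channels fell. In the calcium list 6 of 19 fell and 2 rose (31.6% and 10.5%, against 3.91% and 4.3% of all genes), with 9 of 19 log2 fold changes above 0 and a median of -0.02. The number that rose was 1 without any one of WT-8 replicates 1 to 3 and KO-8 replicates 1, 3 and 4. Atp2a2, the SERCA2 pump that returns calcium to the sarcoplasmic reticulum, was at 10208, 10324, 10263, 10499 and 10604 CPM in WT-8 and 8186, 8166, 6633 and 8890 CPM in KO-8. WT-8 was tight and every KO-8 library was below it (log2 -0.38, SE 0.07, adjusted p = 0.00555). Cacnb2 and Cacna2d1, auxiliary subunits of the L-type calcium channel, fell by 0.41 (SE 0.07, adjusted p = 0.00249) and 0.24 (SE 0.05, adjusted p = 0.00927). Srl, sarcalumenin, a calcium-binding protein of the reticulum, rose by 0.27 (SE 0.05, adjusted p = 0.00603).

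Of 30 ion channel genes, none rose and 7 fell (23.3%), 8 without WT-8 replicate 1, and the median log2 was -0.14. Beside Kcnv2 and Abcc9 these included Kcnd3, which carries the transient outward potassium current (log2 -0.44, SE 0.07, adjusted p = 0.00304), and Kcnj3, a subunit of the channel opened by acetylcholine (-0.38, SE 0.08, adjusted p = 0.00881). In the adrenergic list 2 of 25 fell (8%, against 3.91% of all genes) and none rose, with 10 of 25 log2 fold changes above 0. Adra1a, the alpha-1A adrenergic receptor, went from 35.8, 49.7, 41.9, 46.7 and 48.0 CPM to 27.8, 27.7, 21.97 and 29.9 CPM (log2 -0.72, SE 0.10, adjusted p = 8.62e-04). The phosphodiesterase Pde4b, which breaks down cAMP, fell by 0.37 (SE 0.07, adjusted p = 0.00434).

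Most transcription and metabolic regulators did not pass. Of 39 tested, 1 rose and 3 fell (2.56% and 7.69%, against 4.3% and 3.91% of all genes). Hand2, a basic helix-loop-helix factor of the developing ventricle, went from 42.4, 44.8, 35.9, 37.8 and 31.3 CPM to 24.98, 24.4, 21.2 and 27.6 CPM (log2 -0.64, SE 0.10, adjusted p = 0.00184). Myocd, the coactivator myocardin of serum response factor, fell by 0.47 (SE 0.10, adjusted p = 0.0121), with KO-8 replicate 2 at 90.7 CPM and the other KO-8 libraries at 60.3 to 67.7, against 90.7 to 102 CPM in WT-8. Tbx20, a T-box factor that adult cardiomyocytes need, rose by 0.33 (SE 0.07, adjusted p = 0.00673).

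Cell cycle genes were higher. Of 32 tested, 13 rose and 2 fell, with a median log2 of 0.68, and without WT-8 replicate 1 the counts were 10 and 2. Top2a, the topoisomerase that untangles chromosomes in dividing cells, was at 4.55, 7.82, 9.28, 5.55 and 5.16 CPM in WT-8 and 23.2, 16.3, 11.9 and 12.3 CPM in KO-8. KO-8 replicate 1 was the highest, and the groups did not overlap (log2 1.32, SE 0.22, adjusted p = 0.00249). Ccna2, cyclin A2 of S phase, rose by 1.33 (SE 0.22, adjusted p = 0.00281) and Cdk1, the kinase of entry into mitosis, by 1.39 (SE 0.25, adjusted p = 0.00393), from 0.604 to 1.10 CPM in WT-8 to 1.70 to 3.08 CPM in KO-8. The kinetochore gene Nuf2 (1.71, SE 0.38, adjusted p = 0.0137) was among the largest rises. Ccnd2, cyclin D2 of G1 phase, went the other way (-0.33, SE 0.06, adjusted p = 0.00479). Bulk tissue does not show which cells these transcripts came from.

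Among genes of insulin and its relatives, transcripts of a ligand, of binding proteins and of an adaptor changed, and signalling itself was not measured. Igf1, insulin-like growth factor 1, rose from 16.2 to 21.3 CPM to 25.6, 27.0, 38.9 and 24.96 CPM (log2 0.59, SE 0.12, adjusted p = 0.0094). In the family named for binding it, Igfbp7 rose by 0.72 (SE 0.08, adjusted p = 1.38e-04) and Igfbp4 by 0.52 (SE 0.09, adjusted p = 0.00358). Irs2 fell, as given above. On the list of 33 genes of insulin, FoxO and atrophy, 3 rose and 8 fell (9.09% and 24.2%, against 4.3% and 3.91% of all genes). The 8 depended on single libraries, with 3 without WT-8 replicate 1 or KO-8 replicate 1, 5 without WT-8 replicate 2 or KO-8 replicate 4, 4 without KO-8 replicate 2 and 2 without WT-8 replicate 4.

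The core of the circadian clock is a loop in which CLOCK and BMAL1 switch on their own repressors through the E-box CACGTG. Of 20 clock and output genes, 3 rose and 1 fell (15% and 5%, against 4.3% and 3.91% of all genes), and the number that fell was 0 without WT-8 replicate 2 or KO-8 replicates 1, 2 or 3. Ciart, a repressor of CLOCK and BMAL1, went from 1.71, 1.22, 1.51, 0.988 and 1.22 CPM to 2.84, 2.73, 1.76 and 5.92 CPM. KO-8 replicate 4 was the highest and KO-8 replicate 3 lay just above the highest WT-8 value (log2 1.33, SE 0.30, adjusted p = 0.015). The repressor Per1 was at -0.44 (SE 0.11, adjusted p = 0.0205) and did not pass without WT-8 replicate 2 (0.0521) or KO-8 replicates 1, 2 or 3 (0.0567 to 0.0571). The repressor Bhlhe41 was at 0.45 (SE 0.11, adjusted p = 0.024) and did not pass without WT-8 replicates 3 or 4 (0.0503 and 0.0609) or KO-8 replicates 1 or 2 (0.0578 and 0.0679). The labels do not give the time of day at which tissue was taken.

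The promoter of Ciart is printed to show its 3 E-boxes, in capitals (RefSeq, GRCm38.p6, chr3:95882242-95882369, minus strand).
Ciart: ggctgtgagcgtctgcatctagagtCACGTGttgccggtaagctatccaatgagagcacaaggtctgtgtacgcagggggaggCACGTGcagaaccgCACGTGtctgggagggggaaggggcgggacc
An E-box was in the 250 bases before the start of 1634 of 27025 promoters (6.05%). Among the clock genes that passed it was in that of Ciart, Bhlhe41 and Per1, which did not move in the same direction, and among the 13 that did not pass and had a promoter in the table it was in 2, Cry1 and Tef.

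Among immune genes, 3 of 39 on the interferon response list rose (7.69%, against 4.3% of all genes) and none fell, with 37 of 39 log2 fold changes above 0 and a median of 0.19. Without WT-8 replicate 1, WT-8 replicate 4 or KO-8 replicate 2 a single gene rose, without KO-8 replicate 3 none did, and without KO-8 replicate 4 the count was 5. Rsad2, an antiviral enzyme, rose from 17.2 to 25.5 CPM to between 23.7 and 36.7 CPM (log2 0.51, SE 0.12, adjusted p = 0.0169, and 0.0509 without KO-8 replicate 3). In the antigen presentation list 3 of 22 rose (13.6%), 5 without KO-8 replicate 4, among them B2m, the light chain of MHC class I (0.43, SE 0.09, adjusted p = 0.0085), and H2-T22, a class I gene of a family whose near-identical members can share reads (0.77, SE 0.12, adjusted p = 0.00135). Macrophage markers did not rise: 0 of 12 passed upward and 1 fell, and their summed level was 260 to 313 CPM in WT-8 and 287 to 301 in KO-8. None of the few tested markers of T, B or mast cells passed. All 5 of mast cells had log2 fold changes above 0 (median 0.68), and up to 2 of them passed with a library left out. Erythroid markers were lower in 3 of 9. All 9 log2 fold changes were below 0, with a median of -0.74, and of -0.88 to -0.57 with a library left out. The count of 3 that passed ran from 0 without KO-8 replicate 1 or 3 to 7 without WT-8 replicate 5. It was 1 without WT-8 replicate 2, 3 or 4, 5 without WT-8 replicate 1 and 6 without KO-8 replicate 4.

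Metabolic genes on either side of the carrier changed modestly beside those groups. On the glycolysis list 6 of 22 rose and 1 fell (7 and 0 without WT-8 replicate 1). Gapdh went from 787, 772, 800, 755 and 677 CPM to 1171, 1024, 1213 and 1113 CPM (log2 0.58, SE 0.06, adjusted p = 1.68e-04), a clear separation for a gene often used as a reference. The glycolytic enzymes Eno3, Pgam2 and Pkm rose by 0.60 (SE 0.09), 0.53 (SE 0.07) and 0.31 (SE 0.06), with adjusted p of 0.00158, 5.77e-04 and 0.0085. Around pyruvate itself 3 of 28 rose and 3 fell, the deleted Mpc1 among them (10.7% each, against 4.3% and 3.91% of all genes), and 5 fell without WT-8 replicate 5. Pdhb, a subunit of pyruvate dehydrogenase, rose by 0.54 (SE 0.07, adjusted p = 5.7e-04). Slc16a7, a monocarboxylate transporter, fell by 0.79 (SE 0.12, adjusted p = 0.00122) and Gpt2, the mitochondrial alanine transaminase that links alanine and pyruvate, by 0.35 (SE 0.08, adjusted p = 0.0123).

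The list for branched-chain amino acid breakdown had 5 of 21 genes lower and none higher, with and without WT-8 replicate 1. Ivd and Acadsb, acyl-CoA dehydrogenases of that route, fell by 0.45 (SE 0.07, adjusted p = 0.00128) and 0.39 (SE 0.05, adjusted p = 8.38e-04), Aldh6a1 of valine breakdown by 0.30 (SE 0.05, adjusted p = 0.00393) and Ppm1k, the phosphatase that activates its committed step, by 0.57 (SE 0.10, adjusted p = 0.00454). In fatty acid uptake and oxidation 3 of 24 fell (12.5%, against 3.91% of all genes) and none rose. Lpl, lipoprotein lipase, was the clearest, 3532 to 3927 CPM in WT-8 against 2124 to 2721 in KO-8 (log2 -0.60, SE 0.07, adjusted p = 2.36e-04).

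Bdh1, which oxidises the ketone body beta-hydroxybutyrate, was the one gene of 6 on the ketone list that passed, rising from 38.4, 68.3, 52.5, 60.8 and 51.1 CPM to 96.7, 71.2, 111 and 92.4 CPM (log2 0.78, SE 0.14, adjusted p = 0.00465). Of 18 genes of the tricarboxylic acid cycle 1 rose and 2 fell (5.56% and 11.1%, against 4.3% and 3.91% of all genes). Dlst rose by 0.27 (SE 0.05, adjusted p = 0.00597), and Idh2 fell by 0.35 (SE 0.07, adjusted p = 0.00931) and Suclg2 by 0.23 (SE 0.06, adjusted p = 0.0197). The number that fell was 1 without WT-8 replicate 1 or 4 or KO-8 replicate 2, and 2 rose without KO-8 replicate 3. Gstm2, a glutathione transferase from a family of similar genes, fell by 0.54 (SE 0.08, adjusted p = 9.77e-04). It was among the 4 of 35 antioxidant genes that fell (11.4%, against 3.91% of all genes), while none rose. None of 32 nuclear and 12 mitochondrial genes of the respiratory chain passed, nor did any of 40 cytosolic ribosomal proteins, with list medians from -0.09 to 0.01.

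Noncoding and provisional transcripts were unevenly divided. Of 894 tested transcripts of the annotation class TEC (to be experimentally tested), 3 were higher and 68 lower, and of 1005 long noncoding RNAs 18 were higher and 72 lower. Among 12814 protein-coding genes 625 were higher and 446 lower. Where such transcripts lie within a coding gene on its strand, reads from introns of that gene can be counted for them.

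The 8-week change was set beside that at 16 weeks, which has other WT and KO libraries. The counts of the 8-week and 16-week libraries carry different dates, and most 16-week libraries held fewer counted pairs. Run and depth therefore cannot be told apart from time, and the values below are not a time course. A test of the difference between both changes found 0 of 15503 genes past the threshold in edgeR and 0 with limma-voom, with 2000 and 2264 genes at an unadjusted p under 0.05, so no gene was shown to change by a different amount at the 2 times. Nmrk2 had log2 fold changes of 5.79 at 8 weeks and 8.09 in the 16-week libraries alone, Acta1 2.96 and 5.32, Nppa 2.22 and 3.42, Col1a1 0.81 and 2.03 and Fhl1 1.48 and 2.39, each larger at 16 weeks by value only. Atf3 was at -1.99 and -0.17 (adjusted p = 0.848 at 16 weeks), Hspb6 at 0.88 and 0.32 (0.358) and Mapk10 at 0.79 and 0.15 (0.615). Of 12573 genes tested at both times, each fitted alone, 1103 passed at 8 weeks, 356 at 16 weeks and 207 at both, which is 18.8% and 58.1% of the respective lists, and all 207 had the same direction.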

How the data were processed

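Gene counts deposited by the authors were used; per the file headers, featureCounts 1.6.3 counted read pairs on the reverse strand, gave each pair to the gene it overlapped most, and used GRCm38 with the Ensembl 96 genes. The submitters' processing notes list further tools without role or order: STAR, RSEM, cutadapt 1.16, SAMtools and FastQC. Symbols came from GENCODE M21 (55536 of 55536 genes matched). The KO-8 and WT-8 libraries were fitted alone with edgeR 4.0.16 (TMM, filterByExpr, quasi-likelihood, R 4.3.3), adjusted over all genes tested, with a threshold of 0.05. SEs were obtained by dividing the size of each log2 fold change by the root of its F statistic. CPM are counts per 1000000 of the library total times the TMM factor (0.954 to 1.060). The contrast with 16 weeks used all 19 libraries, with both deposited files of each 16-week sample summed.

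The comparison, the 38 pathway and 21 cell type lists and the rules were chosen with earlier results of these data known. Named genes were Mpc1, Mpc2, Esr1 and A1cf, the 15 largest rises and falls and the 10 smallest p among genes past the threshold with at least 1 CPM, no overlap and an established symbol, up to 4 members of each list with the smallest p, and genes past the threshold within 5 Mb of Mpc1. Xirp2, Hspb2, Hspb3, Hspb7, Hspb8 and the genes named by promoter match alone fall outside that rule, and their values had been seen when they were chosen. Not every gene the rule selects is named.

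Replicates are numbered in the order of the samples. Between libraries of a group, chi-square over the number of genes was 7.14 to 19.9, and none was treated as a duplicate. On simulated counts for KO-8 against WT-8 over 15173 genes, 74.6% of 1.5-fold, 88.1% of 2-fold and 100% of 4-fold changes were recovered, with 5 false calls in 180. The simulation changed 67, 67 and 66 genes by these folds and none by less. It drew each gene independently with the spread that the model had fitted. The real changes had median folds of 1.39 and 1.32, so these shares do not measure how many real calls are right or missed. Alternatives were other scalings, filters and tests (DESeq2 1.42.0, limma 3.58.1), thinning, gene subsets, all 19 libraries and each library left out. Python 3.11.15 was used for counting and promoter searches.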

Additional observations from a re-analysis of the deposited data

Results flagged for a closer look

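A library was singled out where its gap to the nearest other library of its group, over the range of the group, passed Dixon's 95% critical value, which chance does in about 1 in 20 groups. In all, 218 groups were examined and 16 flags arose, so many of them can be expected by chance. Slc7a8, Lipo2 and Gm19241 were named with their values already seen, so their flags are no separate result. WT-8 replicate 1 was far above the other WT-8 libraries for Esr1 (1792 CPM), Slc7a8 (28.9), Lipo2 (3.46), A1cf (3.07), Gm19241 (0.438) and Lgi3 (2.19, others 1.33 to 1.56). KO-8 replicate 3 was far above the other KO-8 libraries for Xirp2 (2947 CPM, others 2083 to 2139), Esr1 (2316, others 1432 to 1502), Igfbp4 (72.0, others 54.4 to 56.5), Cilp (69.0, others 18.9 to 26.6), Igf1 (38.9, others 24.96 to 27.0), Mfap4 (32.0, others 11.5 to 14.03) and Lgi3 (7.87, others 3.45 to 4.03). WT-8 replicate 3 was high for Fstl1 (81.2 CPM, others 70.2 to 72.2) and Ccna2 (3.37, others 1.71 to 2.09). KO-8 replicate 4 was low for Eno3 (959 CPM, others 1172 to 1199).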

How the results depend on the processing

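The number of genes past the threshold was 1245, 652 higher and 593 lower. Leaving out one library at a time gave 872 to 1163, 462 to 614 and 393 to 549. The fit to all 19 libraries gave 31, 17 and 14, with a larger spread estimated for each gene. Under the other scalings, filters, tests and gene subsets and after thinning, 1106 to 1689 genes passed. The difference in the mitochondrial share, KO-8 minus WT-8, was -1.79 percentage points and kept its sign without any one library (-2.34 to -0.938), but over the 13 protein-coding genes alone it was 0.545 (exact permutation p = 0.508), and the cause was not tested. The difference between both time points had 0 genes past the threshold with limma-voom, RLE factors or WT-8 replicate 1 left out. Counts of a few CPM, as for Lman1l or Nuf2, limit the precision of single genes. No paired analysis was possible because the labels give no replicate numbers that the groups share.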

Other observations

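The other pathway lists are given beside the shares of all genes, 4.3% higher and 3.91% lower. On the Wnt and Hippo list 3 of 20 genes rose (15%) and 1 fell (5%), on the hypoxia list 1 of 19 rose (5.26%) and 3 fell (15.8%), on the list of PPAR-alpha targets 1 of 18 rose (5.56%) and 2 fell (11.1%), and on the p53 and DNA damage list 1 of 22 rose. On the cholesterol list 1 of 24 rose and 1 fell, and likewise 1 and 1 of 32 autophagy and lysosome genes. Of 40 mitochondrial ribosomal proteins 2 rose and 1 fell, and of 46 genes of mitochondrial carriers, import and dynamics 2 rose. Among 19 genes that respond to glucocorticoids 2 fell (10.5%). Chemokines, cytokines and complement had 3 of 31 higher (9.68%) and 1 lower (3.23%). Of the markers of atrial cardiomyocytes 2 of 7 were higher, Nppa and Dkk3, and 1 lower, Kcnj3. Of 12 skeletal muscle and 10 adipocyte markers, 3 each were high enough to be tested and 1 each was higher. These were Acta1, given above as a fetal gene, and Fabp4, which is also on the endothelial list. Neither count therefore speaks for a rise of skeletal muscle or adipocytes. None passed of 6 endocardial, 6 lymphatic endothelial, 7 conduction system or 3 platelet genes, and 1 passed of 8 of the epicardium, 1 of 7 of Schwann cells and neurons and 1 of 4 of neutrophils, each lower. These small counts were not steady. With single libraries left out they ran, for example, from 0 to 2 rises for mitochondrial ribosomal proteins, from 2 to 4 for the Wnt and Hippo list, from 0 to 2 for PPAR-alpha targets, from 1 to 2 for atrial cardiomyocytes and from 1 to 3 for chemokines, cytokines and complement.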
